A study of Arabidopsis thaliana with 24 samples.

Results

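The genes described here build the gateway into the plant secretory pathway: the signal recognition particle with its receptor, the SEC61 translocon, signal peptidase, the oligosaccharyl transferase, the p24 cargo receptors and coatomer. Members were the probe sets whose only annotated gene is 1 of 59 listed Arabidopsis thaliana loci. Of these 59 loci, 38 had such a probe set, which gave 40 probe sets among 22746 on the array. After a filter on dim probe sets, 34 loci (36 probe sets) were tested among 13648 probe sets. By complex, 8 of 12 listed loci of the signal recognition particle were tested, 6 of 9 of the translocon, 6 of 8 of signal peptidase, 2 of 6 of the oligosaccharyl transferase, 3 of 10 of the p24 family and 9 of 14 of coatomer. Probe sets that carry several genes cover 10 of the 59 listed loci, and those probe sets were not analysed here.

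A protein bound for the endoplasmic reticulum (ER) is recognised by its signal peptide as it leaves the ribosome. The signal recognition particle brings the ribosome to the receptor on the ER membrane, SEC61 passes the chain across, signal peptidase removes the signal peptide and the oligosaccharyl transferase adds N-glycans. p24 proteins then load cargo into vesicles between ER and Golgi, and coatomer coats the vesicles that return from the Golgi. In Arabidopsis leaves, genes of this machinery have been described as part of the defence programme controlled by NPR1, a coactivator that responds to salicylic acid.

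The study sprayed 2-week-old, soil-grown plants with 100 µM of a synthetic defence elicitor or with mock solution, a trace of DMSO in water, and measured total RNA of the aerial tissue on Affymetrix ATH1 arrays. DCA is 3,5-dichloroanthranilic acid, an aminobenzoic acid, and INA is 2,6-dichloroisonicotinic acid, a pyridine carboxylic acid and a functional analogue of salicylic acid. The 8 groups of 3 arrays were npr1-3 plants 48 h after DCA, npr1-3 plants 48 h after mock, Col-0 plants 6 d after DCA, INA or mock, and Col-0 plants 48 h after DCA, INA or mock. The labels call the arrays independent biological replicates and give 1 mutant allele, no INA treatment of npr1-3 and no npr1-3 plants at 6 d.

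All 24 arrays had been scaled to the same trimmed mean signal, 500.1, and their median signals lay between 115.1 and 148.4. The mesophyll markers RCA and LHCB4.1 were bright on every array, while the root marker PER57 averaged between 6.08 and 23.2 across groups and was too dim to be tested. The NPR1 transcript was not analysed here, so the genotype rests on the labels. In whole aerial tissue, fewer cells of a type and less RNA per cell cannot be told apart. Among the members, the median within-group SD of log2 signal ran from 0.13 in Col-0 plants 48 h after DCA to 0.32 in Col-0 plants 6 d after INA.

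After elicitor treatment, most of the tested genes of this machinery lay slightly above mock, and almost none of them passed the test singly. With DCA at 48 h, 24 of 34 genes had a positive log2 change, the median was 0.19, and the median over all tested probe sets was 0.01 with 51.2% positive. With INA at 48 h, 30 of 34 were positive with a median of 0.24, against 0.01 and 50.9% over all. With INA at 6 d, 26 of 34 were positive with a median of 0.19, against -0.00 and 49.7% over all.

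The other treatments gave smaller medians relative to all probe sets. With DCA at 6 d, 19 of 34 genes were positive and their median was 0.02, against -0.04 over all tested probe sets. With DCA in npr1-3 at 48 h, 27 of 34 were positive and their median was 0.16, but the median over all was itself 0.08, with 60.8% positive. The DCA and INA comparisons at each time share their mock arrays, so their values are given side by side and not as separate support for each other.

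Genes passing the test were few and near the rate of the whole array. An adjusted p under 0.05 in limma counts as a call throughout. With DCA at 48 h, 1 of 34 genes rose, beside 2.41% of all tested probe sets called in either direction and 1.98% called higher. With INA at 6 d, 1 of 34 rose, beside 1.83% called over all, 1.55% higher and 0.278% lower. With INA at 48 h, 0 of 34 were called, 2 had an unadjusted p under 0.05, and 2.65% of all probe sets were called, 2.37% higher and 0.278% lower. In that comparison same-numbered arrays deviated together from their group means (correlations 0.76, 0.78 and 0.29), though the labels give no pairing. With a block on the replicate number, added after seeing the data, 4 of 34 were called, all higher. Over all probe sets 15.3% were called in that fit, and 8.76% were called higher.

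No gene of the list was called by limma with DCA at 6 d, where 0 had an unadjusted p under 0.05 and 0% of all probe sets were called. None was called with DCA in npr1-3, where 1 had an unadjusted p under 0.05 and 0.322% of all probe sets were called. The single arrays were also counted, with no test. With DCA at 48 h, all 3 DCA arrays exceeded all 3 mock arrays for 12 of 34 genes, beside 15.3% of all probe sets, and lay below them for 3, beside 12.8%. With INA, 6 of 34 were higher without overlap at 6 d, beside 12.8%, and 6 at 48 h, beside 10.1%, and 0 were lower at either time, beside 13.2% at 6 d and 6.15% at 48 h. With DCA at 6 d, 2 were higher, beside 7.32%, and 1 was lower, beside 7.96%. With DCA in npr1-3, 2 were higher, beside 6.94%, and 1 was lower, beside 3.95%. Of these counts, the 12 of 34 higher with DCA at 48 h lay furthest above the share of the whole array.

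**Figure D1:**
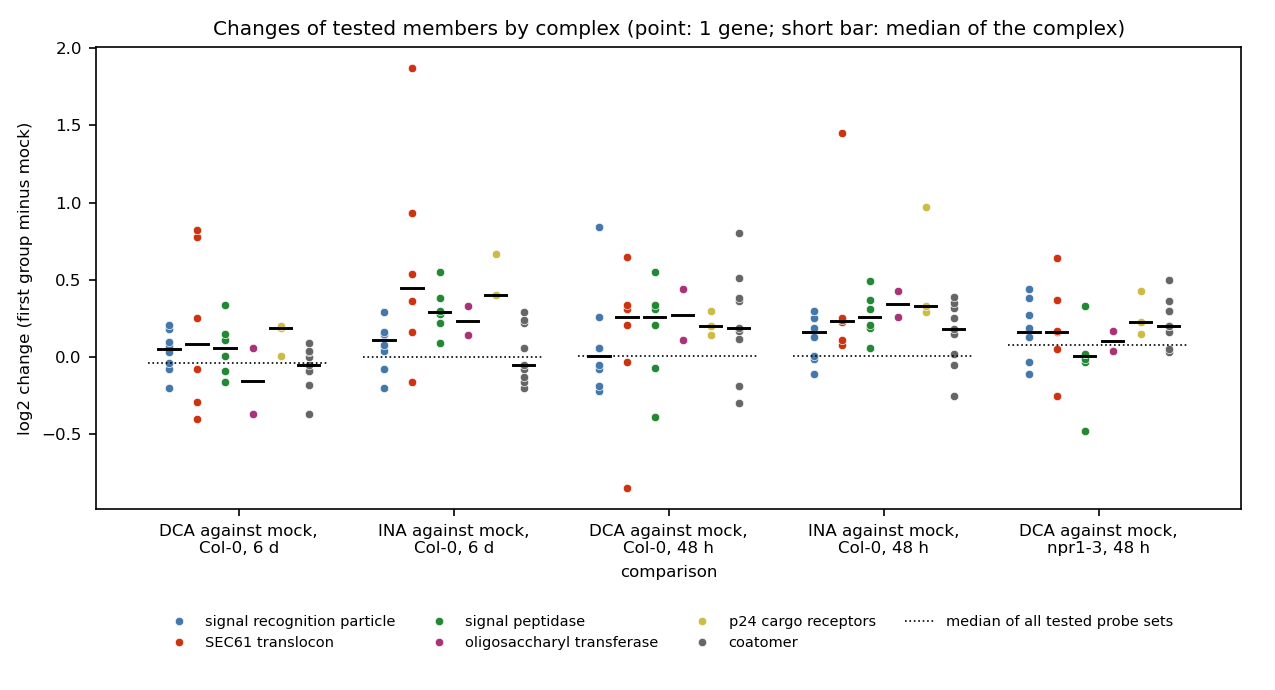
Log2 change of each tested gene (point) in the 5 elicitor comparisons (horizontal axis), grouped by complex, with short bars for the median of each complex and dotted lines for the median of all tested probe sets. SEC61 genes spread most widely with INA at 6 d, between -0.16 and 1.87, and with DCA at 48 h the median of the signal recognition particle was 0.00.

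The signal recognition particle had the lowest median of the complexes with DCA at 48 h. Its 8 tested genes had a median log2 change of 0.00 with DCA at 48 h, 0.16 with INA at 48 h and 0.11 with INA at 6 d, with 4, 6 and 6 genes positive. AT4G30600, the alpha subunit of the receptor, which receives the particle at the ER membrane, was the gene that stood apart from the others with DCA. Its signals 48 h after DCA were 2647, 2466 and 2051 in Col-0, against 956, 1609 and 1531 in mock plants. Every DCA array was above every mock array, and the log2 change of 0.84 ± 0.23 (SE, n = 3 each) had an adjusted p of 0.0623. It passed in the fit with the replicate number as a block over all groups (adjusted p = 0.0483) and without mock replicate 2 (0.0319), the mock array with the highest signal. With INA at 48 h the signals were 1332, 2048 and 1625, which overlapped mock (log2 change 0.30, adjusted p = 0.741). At 6 d the log2 change was 0.03 with DCA and 0.08 with INA.

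Other parts of the particle stayed close to mock. The receptor's beta subunits, its membrane anchors, had changes of 0.29 (AT5G05670) and -0.20 (AT2G18770) with INA at 6 d. AT5G05670 gave the lowest value of the group with INA at 48 h, -0.11. SRP68 (AT5G61970), a protein of the particle's signal-binding domain, had a change of 0.26 with DCA and 0.30 with INA at 48 h. SRP9 (AT3G49100), which with SRP14 pauses translation, had the lowest change with DCA at 48 h, -0.22, between 95% limits of -0.74 and 0.30. SRP54 (AT1G48900), the subunit that binds the signal peptide, had 0.06 with DCA and 0.25 with INA at 48 h. In the comparisons of an elicitor with mock, the lowest adjusted p of these 5 genes was 0.56. A second SRP54 gene, AT5G49500, had a geometric mean signal of 30.5 and was too dim to be tested.

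The translocon held the member that rose most with INA. AT3G60540 encodes a SEC61 beta subunit, a small membrane protein at the side of the channel. Its signals 6 d after INA were 1464, 1007 and 903, against 376, 291 and 248 in mock plants of that time. The lowest INA array was above the highest mock array, and the log2 change was 1.87 ± 0.40 (3.67-fold, adjusted p = 0.0132). The direction held without each array in turn, with changes of 1.67 to 2.04. The call was lost without INA replicate 1 (adjusted p = 0.0625), mock replicate 2 (0.0618) or mock replicate 3 (0.0647), and without replicate number 2 (0.135) or 3 (0.499) in all groups.

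AT3G60540 was also high 48 h after INA. Its signals were 662, 1071 and 911, against 338, 316 and 295 in mock plants, again without overlap. The log2 change was 1.45 ± 0.40 (2.74-fold, adjusted p = 0.0554). With the replicate number as a block within the groups compared, the adjusted p was 0.000136. It was 0.0485 with the block over all groups, 0.0366 in a fit to those groups alone and 0.00108 without replicate number 1 in all groups. Under the other alternatives it stayed above the threshold, at 0.115 with quantile normalization and at up to 0.938 without replicate number 3.

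After DCA the signal of AT3G60540 was below every INA array of the same time on 5 of 6 arrays. At 48 h the signals after DCA were 468, 558 and 464, above every mock array of that time (log2 change 0.65, 95% limits -0.18 to 1.48, adjusted p = 0.45). At 6 d they were 1147, 339 and 352, so replicate 1 lay within the range of the INA arrays and the other two within the mock range. The log2 change of 0.78 (adjusted p = 0.93) was 0.20 without DCA replicate 1. In npr1-3 plants the signals were 207, 634 and 366 after DCA, against 257, 455 and 368 after mock, which overlap (log2 change 0.05, -0.77 to 0.88).

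**Figure D2:**
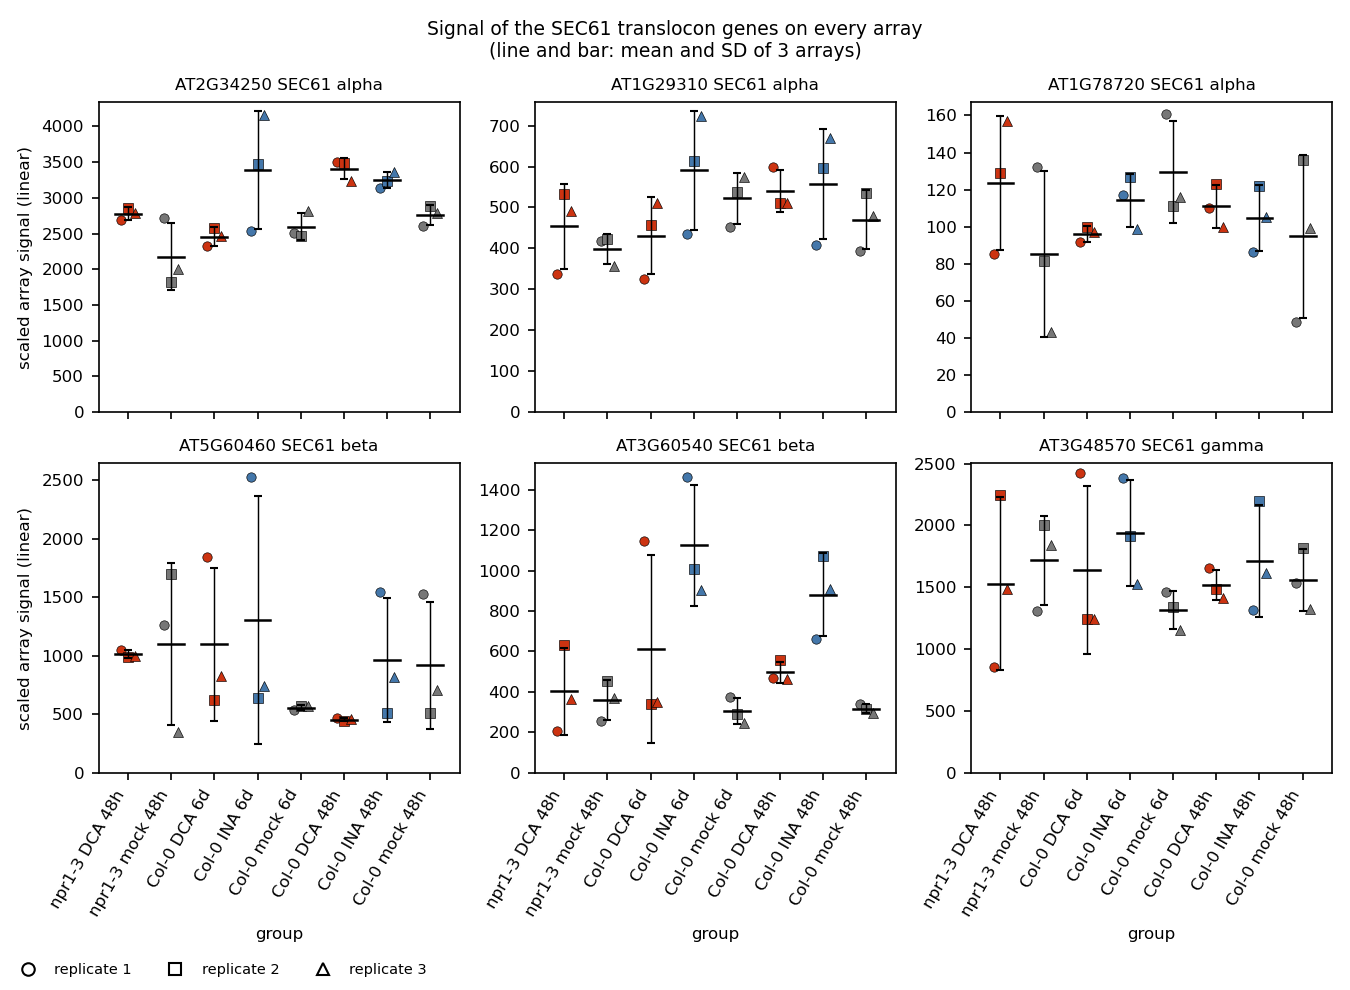
Scaled signal (linear axis) of the 6 SEC61 genes on every array, by group, with 1 marker shape per replicate number and the mean and SD of 3 arrays in black. AT3G60540 has its INA arrays above its mock arrays at both times, and replicate 1 of AT5G60460 stands high in 4 Col-0 groups.

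The other tested SEC61 beta gene, AT5G60460, varied more between replicates than between treatments. Replicate 1 stood high in Col-0 plants 6 d after DCA (1844, 623 and 824) and INA (2529, 643 and 741), and 48 h after INA (1548, 514 and 821) and mock (1529, 512 and 710). The 3 arrays were close together 48 h after DCA (467, 440 and 457) and 6 d after mock (535, 569 and 567). In npr1-3 plants the signals were 1050, 991 and 1001 after DCA, and 1259, 1702 and 345 after mock. Between genotypes after DCA, npr1-3 arrays were above Col-0 arrays without overlap (log2 change 1.16 ± 0.56, adjusted p = 0.181, but 0.00174 in a fit to those groups alone).

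The channel-forming alpha subunits had small changes. AT2G34250 had signals of 2532, 3471 and 4167 at 6 d after INA, against 2507, 2462 and 2810 after mock, and 3508, 3489 and 3234 at 48 h after DCA, against 2603, 2886 and 2782 after mock. The INA arrays at 6 d overlapped mock, and the DCA arrays at 48 h were above it, as were the INA arrays of that time at 3140, 3239 and 3359. The log2 changes were 0.36 (adjusted p = 0.352) with INA at 6 d, and 0.31 (0.406) with DCA and 0.24 (0.722) with INA at 48 h. AT1G29310 had changes of 0.16 with INA at 6 d, and 0.21 with DCA and 0.23 with INA at 48 h. AT1G78720, a dimmer probe set with signals between 42.9 and 161, had -0.16, 0.34 and 0.25 in those comparisons, with limits of -0.50 to 1.01 in the last.

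The gamma subunit AT3G48570, a short tail-anchored protein that clamps the channel, was read by a pair of probe sets. With INA at 6 d they gave log2 changes of 0.54 and 0.49 (adjusted p = 0.433 and 0.439). With DCA at 48 h they gave -0.03 and 0.33. They disagreed between genotypes, as given with the npr1-3 comparison.

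All 6 tested genes of signal peptidase were above mock with INA at both times, by medians of 0.29 at 6 d and 0.26 at 48 h. None was called. SPC12 (AT2G22425), an accessory subunit, had signals of 4340, 3005 and 2505 at 6 d after INA, against 2135, 2217 and 2183 after mock. These do not overlap, and the log2 change of 0.55 ± 0.23 had an adjusted p of 0.266. After DCA at 48 h the same gene was the lowest of the complex, with 2451, 2273 and 2266 against 3429, 2884 and 2900 after mock (log2 change -0.39, adjusted p = 0.429).

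SEC11 is the catalytic subunit and has 2 genes here. AT3G15710 had signals of 2236, 2376 and 2423 at 48 h after DCA, against 1198, 2111 and 1623 after mock. The groups did not overlap, and the log2 change was 0.55 ± 0.19 (adjusted p = 0.145, and 0.0258 without mock replicate 2). Its change with INA at 6 d, 0.09, was the lowest of the complex. AT1G52600 had changes of 0.31 with DCA and 0.31 with INA at 48 h. SPC25 (AT2G39960), another accessory subunit, had signals of 1966, 2214 and 1639 at 48 h after INA, against 1606, 1274 and 1262 after mock (log2 change 0.49, adjusted p = 0.734, and 0.0289 with the replicate number as a block within those groups).

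Only ribophorin I, a subunit that helps the oligosaccharyl transferase bind its substrates, was tested for that complex. AT2G01720 had signals of 1806, 2476 and 2325 at 48 h after INA, against 1339, 1808 and 1759 after mock. The ranges overlap at 1 pair of arrays, and the log2 change was 0.43 ± 0.24 (adjusted p = 0.533, and 0.0282 with the block within those groups). After DCA the signals were 2115, 2140 and 2344 (log2 change 0.44, adjusted p = 0.382). At 6 d its change was 0.14 with INA and -0.37 with DCA. AT1G76400 had 0.33 with INA at 6 d, and 0.11 with DCA and 0.26 with INA at 48 h. An OST3/OST6 gene, AT1G11560, had a geometric mean signal of 42.2 and was not tested.

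The 3 tested p24 genes, which encode cargo receptors cycling between ER and Golgi, were above mock in all 5 elicitor comparisons. AT1G26690 had the largest changes of the 3 with INA. Its signals at 48 h were 309, 267 and 237 after INA, against 227, 113 and 100 after mock, without overlap. The log2 change of 0.97 ± 0.30 had an adjusted p of 0.103. It passed with the block within those groups (0.00883), without mock replicate 1 (0.0115) and without replicate number 1 (0.00853). At 6 d the signals were 375, 258 and 276 after INA, against 177, 173 and 218 after mock, and the log2 change was 0.67 (adjusted p = 0.303). With DCA the same gene had 0.01 at 6 d and 0.30 at 48 h. AT3G22845 had 0.40 with INA at 6 d, and 0.20 with DCA and 0.29 with INA at 48 h. AT1G57620 had 0.40 at 6 d, and 0.14 and 0.33 at 48 h.

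Coatomer had a positive median at 48 h and not at 6 d. Its 9 tested genes had medians of 0.19 with DCA and 0.18 with INA at 48 h, and of -0.05 with each elicitor at 6 d. In mock plants, 8 of the 9 were higher at 6 d than at 48 h, with a median of 0.15, so the mock baseline also moved. With DCA in npr1-3 at 48 h the median was 0.20. The epsilon subunit AT1G30630, part of the outer layer of the coat, was the only member called with DCA. Its signals at 48 h were 1874, 1642 and 1561 after DCA, against 814, 1173 and 960 after mock. The lowest DCA array exceeded the highest mock array, and the log2 change was 0.80 ± 0.20 (1.74-fold, adjusted p = 0.0324). The call held without mock replicate 2 (0.0159) and was lost in the other 8 fits that each left out an array or a replicate number. It was also lost in a fit to those groups alone (0.0846). With INA at 48 h its signals were 963, 1555 and 1369 (log2 change 0.39, adjusted p = 0.469), and at 6 d its change was 0.03 with DCA and -0.20 with INA.

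In those fits the adjusted p of AT1G30630 was 0.168, 0.104 and 0.0676 without DCA replicates 1, 2 and 3, and 0.211 and 0.118 without mock replicates 1 and 3. Without replicate numbers 1, 2 and 3 in all groups it was 0.194, 0.0822 and 0.614, and the log2 change stayed between 0.59 and 0.95 throughout. Delta-COP (AT5G05010), of the inner layer that binds cargo, had 0.51 with DCA at 48 h, where its signals of 1904, 2004 and 3318 were above the mock signals of 1482, 1696 and 1756 (adjusted p = 0.346). The beta'-COP gene AT3G15980, of the outer layer, had the highest coatomer change with INA at 6 d, 0.29. The beta'-COP locus AT1G79990 had -0.30 with DCA and -0.25 with INA at 48 h on its brighter probe set, and 0.40 and 0.04 on the other, so its probe sets disagree in sign.

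**Figure D3:**
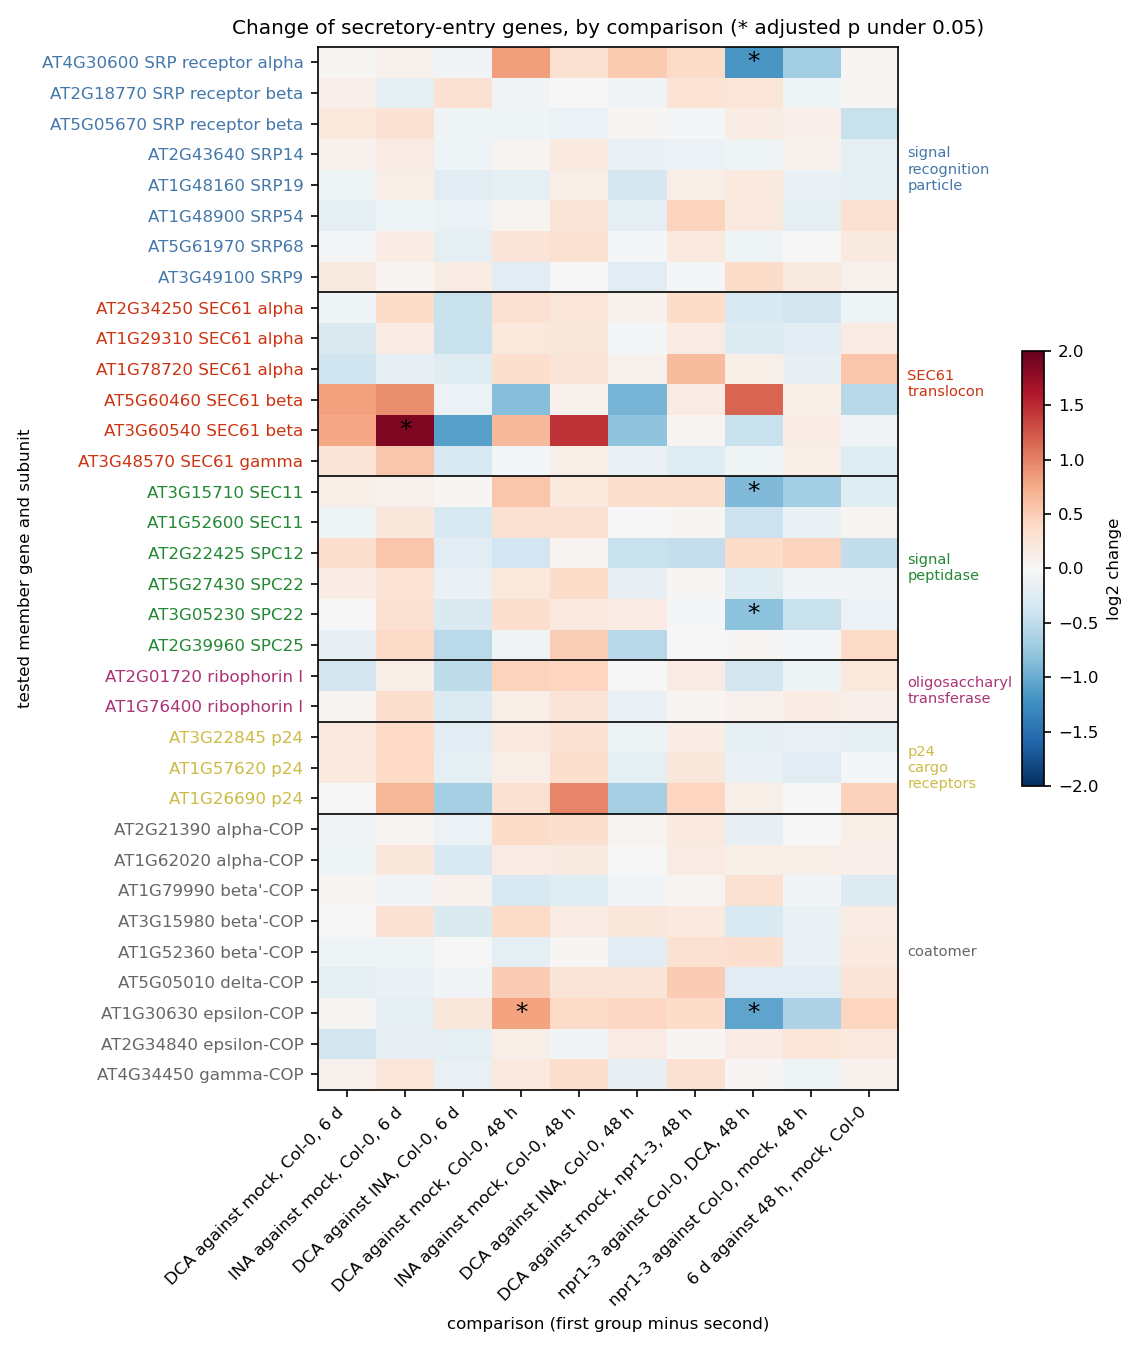
Log2 change (colour) of the 34 tested genes (rows, by complex) in the 10 comparisons between pairs of groups (columns, first group minus second), with stars at an adjusted p under 0.05. Of the 6 stars, 4 stand in the comparison of npr1-3 with Col-0 after DCA, and the others mark AT3G60540 with INA at 6 d and AT1G30630 with DCA at 48 h.

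Of the members' 6 calls, 4 came from setting npr1-3 against Col-0 plants 48 h after DCA, and all were lower in npr1-3. They were the receptor subunit AT4G30600, the catalytic signal peptidase subunit AT3G15710, the accessory subunit SPC22 (AT3G05230) and the coatomer subunit AT1G30630. This comparison moved much of the array: 12.7% of all tested probe sets were called, 6.36% higher and 6.33% lower, so 4 of 34 in either direction is near the rate of the whole array. Without overlap, 7 of 34 were lower, beside 19%, and 4 higher, beside 21.2%. The median change over the list was -0.08, against 0.06 over all tested probe sets. The count was 2 without replicate number 2 in all groups, beside 7.26% of all probe sets, and 0 without replicate number 3, beside 0.022%.

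AT4G30600 had signals of 1427, 813 and 1044 in npr1-3, against 2647, 2466 and 2051 in Col-0, after DCA. The groups are well apart, with a log2 change of -1.16 ± 0.23 (2.23-fold lower, adjusted p = 0.00347). AT1G30630 had 852, 934 and 684 in npr1-3, against 1874, 1642 and 1561 in Col-0. Its log2 change was -1.05 ± 0.20 (2.07-fold lower, adjusted p = 0.00212). AT3G15710 had 1310, 1304 and 1172 in npr1-3, against 2236, 2376 and 2423 in Col-0, with a change of -0.89 ± 0.19 (adjusted p = 0.00461). For all 3 genes every npr1-3 array was below every Col-0 array.

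SPC22 (AT3G05230) was nearer to the threshold. Its signals after DCA were 342, 561 and 398 in npr1-3, against 847, 818 and 611 in Col-0 (log2 change -0.82 ± 0.26, adjusted p = 0.0432). The call held without Col-0 DCA replicate 3 or npr1-3 DCA replicate 2, and was lost in the other 7 fits: without Col-0 DCA replicate 1 (0.153) or 2 (0.14), npr1-3 DCA replicate 1 (0.165) or 3 (0.123), and replicate numbers 1 (0.119), 2 (0.0794) or 3 (0.317). It was also lost without the filter on dim probe sets (0.0601). For AT4G30600 the call was lost without replicate number 2 (0.0636) or 3 (0.194), for AT1G30630 without replicate number 3 (0.206), and for AT3G15710 without replicate number 3 (0.262).

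The gamma subunit of SEC61, AT3G48570, differed by probe set in this comparison. On the dimmer probe set the signals were 252, 499 and 288 in npr1-3, against 667, 574 and 663 in Col-0 (log2 change -0.94, adjusted p = 0.0356). On the brighter one they were 852, 2249 and 1488 in npr1-3, against 1652, 1486 and 1414 in Col-0 (log2 change -0.09, adjusted p = 0.873). The brighter one represents the gene in all counts, and its sign turns without npr1-3 DCA replicate 1 (0.27) or without replicate number 1 (0.34). The call on the dimmer one was lost in 7 of 9 fits without an array or replicate number, where the adjusted p reached 0.399 without replicate number 3, and also with quantile normalization (0.0505) or without the filter on dim probe sets (0.051).

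In mock plants the same 4 genes were lower in npr1-3 as well, without a call. The signals of AT4G30600 were 883, 759 and 816 in npr1-3, against 956, 1609 and 1531 in Col-0 (log2 change -0.70, adjusted p = 0.273). Those of AT3G15710 were 1053, 967 and 987 in npr1-3, against 1198, 2111 and 1623 in Col-0 (-0.68, adjusted p = 0.182). AT1G30630 had a change of -0.61 (0.261) and AT3G05230 of -0.45 (0.545), and for all 4 genes the npr1-3 arrays lay below the Col-0 arrays. In this comparison 0 of 34 genes were called by limma, 4 had an unadjusted p under 0.05 and 0.0806% of all probe sets were called, 0.0733% lower. Without overlap, 4 of 34 were lower, beside 6.41%, and 1 was higher, beside 4.56%.

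Col-0 mock replicate 1 was the lowest Col-0 array for AT4G30600, AT3G15710 and AT1G30630. Without it 2 genes were called, AT4G30600 (-0.94, adjusted p = 0.0414) and AT3G15710 (-0.89, adjusted p = 0.018), beside 2.12% of all probe sets. Without replicate number 1 in all groups, 5 of 34 were called, beside 13.6% of all probe sets, so the count is near the rate of the whole array in that fit. The 5 include AT4G30600 (0.00533), AT3G15710 (0.00441) and AT1G30630 (0.0147).

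The difference between genotypes in the DCA response was tested directly and gave no call among the 34 genes. In limma none reached 0.05 before adjustment (0 of 34), every adjusted p was at least 0.961, and 0.00733% of all probe sets were called. Over all 36 member probe sets, 1 was under 0.05 before adjustment and none was called. The lowest value among the 36 was -0.92, on the dimmer probe set of AT3G48570. For AT4G30600 the response was lower by 0.45 in npr1-3 on the log2 scale, with 95% limits of -1.14 and 0.23. For AT1G30630 the limits were -1.02 and 0.13, and for AT3G15710 -0.77 and 0.33. Within npr1-3, the log2 changes of these 3 genes with DCA against mock were 0.38, 0.36 and 0.33, with adjusted p-values of 0.736, 0.702 and 0.711. The remaining called gene, AT3G05230, had a change of 0.34 with DCA in Col-0. Between genotypes it had -0.82 after DCA and -0.45 after mock, which leaves no like rise within npr1-3.

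**Figure D4:**
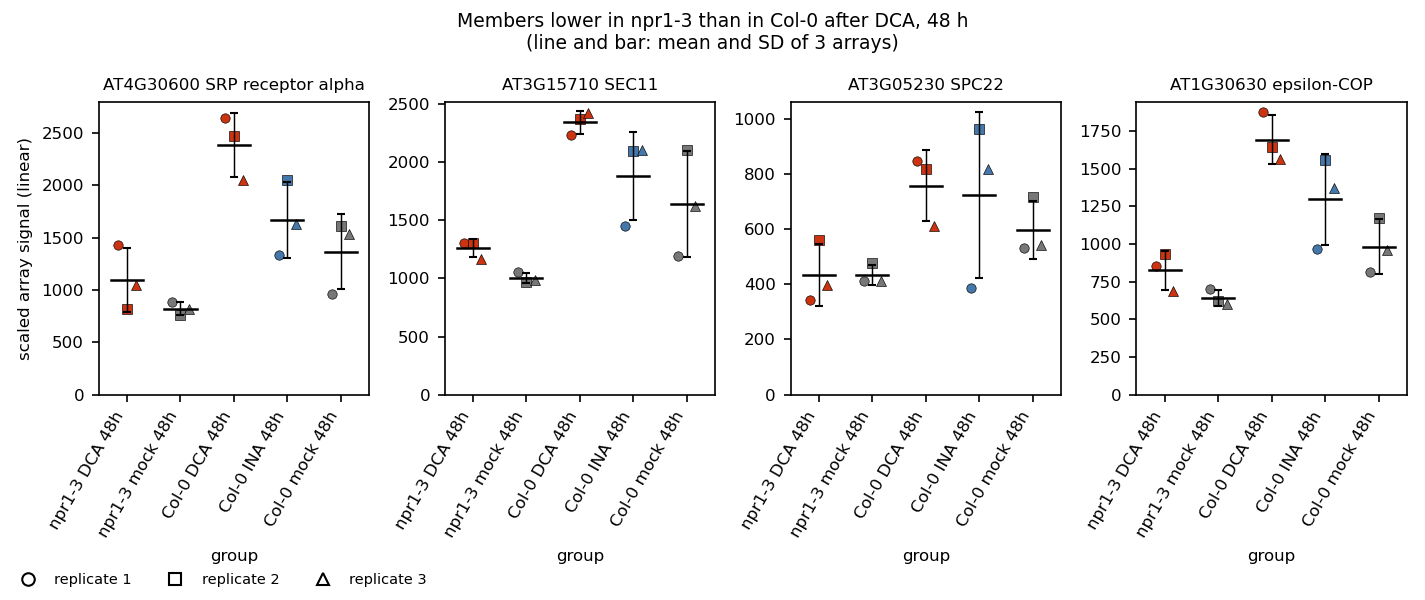
Scaled signal (linear axis) of the 4 members lower in npr1-3 than in Col-0 after DCA, on every array of the 5 groups harvested at 48 h, with markers by replicate number and the mean and SD of 3 arrays in black. For AT3G15710 the npr1-3 DCA arrays lie at 1310, 1304 and 1172, all below the Col-0 DCA arrays at 2236, 2376 and 2423.

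DCA and INA were compared at the same dose and at both times, which makes 34 pairs of values at each time, with p-values adjusted over all tested probe sets. At 6 d DCA plants were lower than INA plants for 29 of 34 genes, with a median difference of -0.20, against -0.03 over all tested probe sets. At 48 h 21 of 34 were lower and the median was -0.06, against -0.02 over all. No gene was called by limma at either time. At 6 d 4 had an unadjusted p under 0.05 and 0.212% of all probe sets were called, and at 48 h the figures were 3 genes and 0%. Without overlap, 2 of 34 were lower at 6 d, beside 6.73%, and 1 higher, beside 3.41%. At 48 h 7 were lower, beside 12%, and 3 higher, beside 11.2%.

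AT3G60540 had the largest difference at 6 d, -1.09 between 95% limits of -1.92 and -0.27 (2.13-fold lower with DCA, adjusted p = 0.529). Same-numbered arrays of these groups deviated together (correlations 0.75, 0.57 and 0.46), though the labels give no pairing. With the block within the groups, added after seeing the data, the adjusted p of AT3G60540 was 0.0183, the only call of the list. In that fit 3.19% of all probe sets were called, and 2.13% were called lower. Without DCA replicate 1 the difference was -1.67 (adjusted p = 0.0373), and without replicate number 1 it was -1.46 (0.00971). At 48 h the difference was -0.81, between -1.63 and 0.02 (adjusted p = 0.43).

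Other members leaned each way. AT1G26690 was lower with DCA by 0.66 at 6 d, between -1.28 and -0.04, and by 0.67 at 48 h, between -1.29 and -0.05 (adjusted p = 0.795 and 0.399). AT2G34250 was lower by 0.44 at 6 d, between -0.80 and -0.08, and had 0.07 at 48 h. AT4G30600 was higher with DCA at 48 h by 0.53, between 0.05 and 1.01 (adjusted p = 0.394), and had -0.05 at 6 d. AT1G30630 had 0.41 at 48 h, between 0.00 and 0.82. The widest limits at 48 h, those of AT5G60460, were -2.11 and 0.24. A missed threshold does not show that the elicitors act alike.

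**Figure D5:**
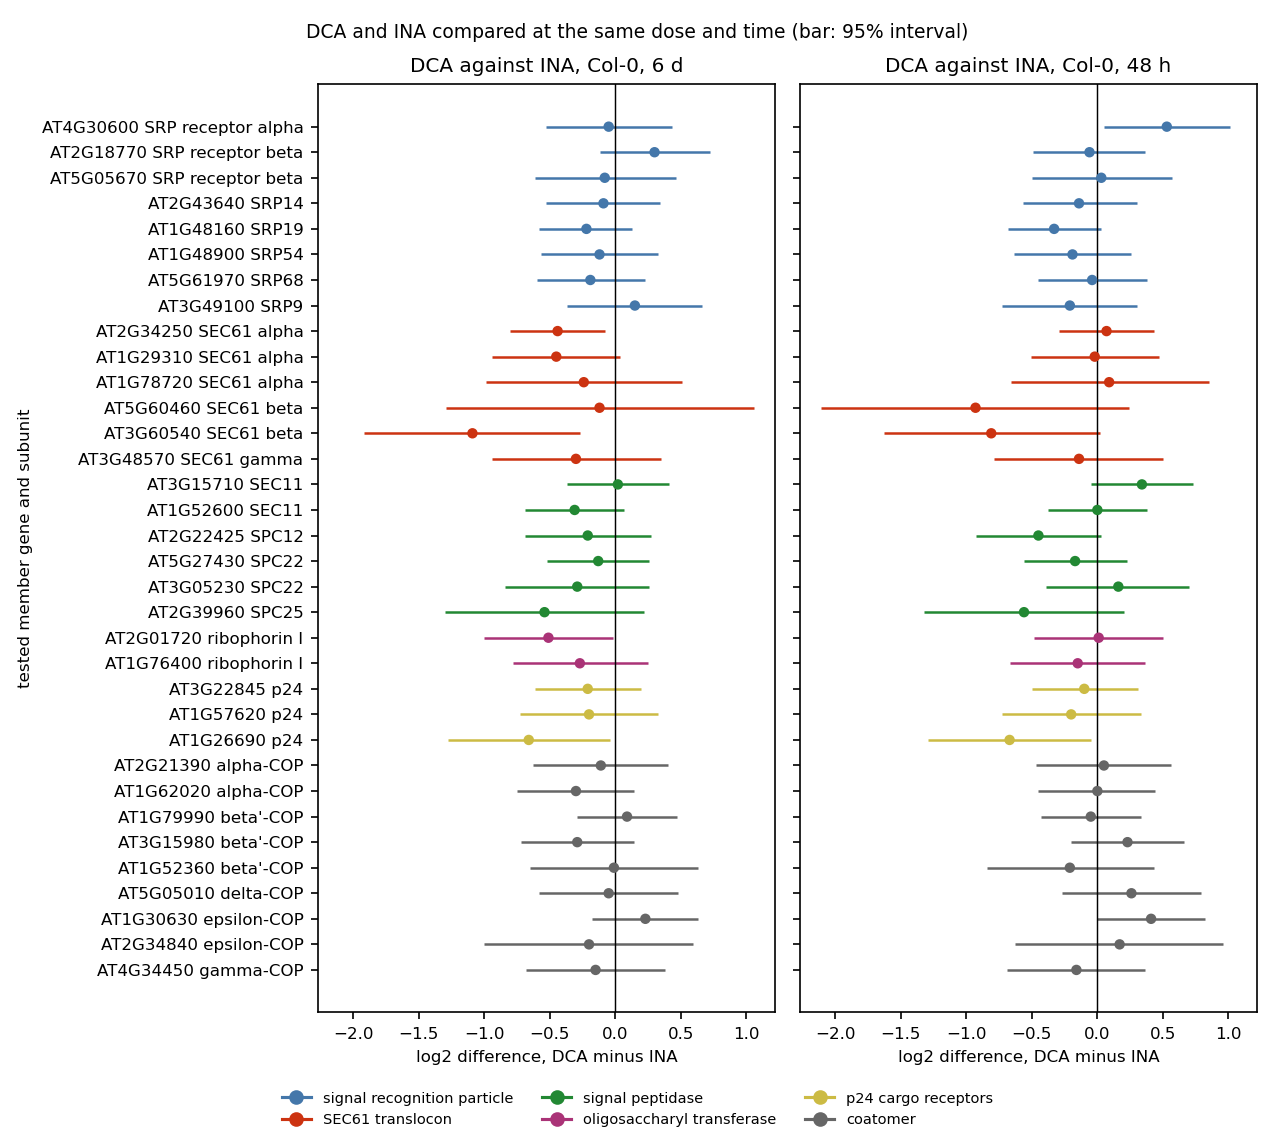
Log2 difference of DCA minus INA in Col-0 (point) with its 95% interval (bar) for the 34 tested genes, at 6 d on the left and 48 h on the right, coloured by complex. At 6 d 29 of 34 points lie below 0, and the interval of AT3G60540 runs from -1.92 to -0.27.

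Between harvest times, mock plants at 6 d and 48 h differed in none of the 34 genes by limma, with 2 at an unadjusted p under 0.05 and 0.212% of all probe sets called. Of the called probe sets, most were higher at 6 d, and 0.0293% of all were called lower. The median change of the 34 genes was 0.07, the same as over all tested probe sets. Without overlap, 4 of 34 were lower at 6 d, beside 9.77%, and 1 was higher, beside 18.2%. The change of the DCA response with time, 6 d minus 48 h, had a median of -0.17, against -0.07 over all tested probe sets, with 22 of 34 genes negative. No gene was called by limma (adjusted p of 0.348 or more), 5 were under 0.05 before adjustment, and 0.022% of all probe sets were called. The epsilon-COP gene AT1G30630 had -0.77 (95% limits -1.35 and -0.20) and AT4G30600 had -0.80 (-1.49 and -0.12). The others of the 5 were AT2G01720 with -0.81, AT2G22425 with 0.74 and AT5G60460 with 1.67. For the INA response the median was -0.08, against -0.03 over all tested probe sets. It had 0 calls by limma, 1 gene at an unadjusted p under 0.05 and 0% of all probe sets called.

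Further genes of the pathway came from 5 lists of 66 loci, of which 27 had a single-gene probe set and 26 were tested. The list of ARF-type GTPases and ERD2 receptors had no such probe set. None of the 5 tested genes of other translocation and glycosylation subunits was called in any comparison, nor any of the 13 of the COPII coat, which carries cargo out of the ER. Their brightest tested genes were AT2G21160, of the translocon-associated complex, with 0.15 under INA at 48 h, and the SEC23-type coat gene AT4G14160, with -0.02. ER folding had a single-gene probe set for 4 of its 22 listed loci, so most of that list was not read. These 4 genes were all above mock with INA, by medians of 0.62 at 6 d and 0.69 at 48 h. With DCA at 48 h they were above mock by a median of 0.71, and with DCA at 6 d the median was -0.08.

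In ER folding 1 of 4 genes was called in each of 3 comparisons, beside 1.83% of all probe sets with INA at 6 d, 2.65% with INA at 48 h and 12.7% for npr1-3 against Col-0 after DCA. It was AT4G16660, an HSP70-type chaperone. Its signals were 157, 250 and 480 at 6 d after INA, against 94.5, 105 and 141 after mock, and 214, 224 and 179 at 48 h after INA, against 72, 106 and 68.5 after mock. INA arrays were above mock arrays at both times, with log2 changes of 1.25 (adjusted p = 0.0497) and 1.35 (0.0229). With DCA at 48 h in Col-0 the log2 change of this gene was 1.05, without a call. After DCA its signals were 55.1, 117 and 92.9 in npr1-3, against 196, 151 and 157 in Col-0 (log2 change -0.98, adjusted p = 0.0494). When an array or a replicate number was left out, these calls were lost in 7, 8 and 8 of 9 fits, where the adjusted p reached 0.641 and 0.369 without replicate number 3 and 0.281 without replicate number 1. In fits to the groups alone all 3 calls were lost (0.184 at 6 d, 0.0732 at 48 h and 0.0612 between genotypes). At 6 d and between genotypes they were also lost with quantile normalization (0.0522 and 0.0511) and without the filter on dim probe sets (0.0935 and 0.0904). Among the uncalled genes of the list, AT3G62600 had signals of 930, 1009 and 1064 in Col-0 48 h after DCA, against 309, 539 and 437 after mock. Its signals in npr1-3 were 304, 622 and 504 after DCA, against 268, 413 and 337 after mock, which overlap. The npr1-3 mean was 477 after DCA and 339 after mock, and the Col-0 mean after mock was 428.

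In ER-associated degradation, 1 of 4 genes was called in the comparison of npr1-3 with Col-0 after DCA, beside 12.7% of all probe sets called and 6.36% higher. AT4G21810, a Derlin-type protein of the ER membrane, had signals of 2233, 1851 and 1940 in npr1-3, against 1059, 983 and 1183 in Col-0, after DCA. The npr1-3 arrays were higher without overlap (log2 change 0.90, adjusted p = 0.0354), and the call was lost in 8 of 9 fits without an array or replicate number, where the adjusted p reached 0.316 without replicate number 3. After mock the signals were 2354, 2040 and 2293 in npr1-3, against 2518, 1166 and 1793 in Col-0, which overlap. The npr1-3 mean was 2008 after DCA and 2229 after mock, and the Col-0 mean was 1075 and 1826.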

How the data were processed

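Per the labels, total RNA of 24 samples was hybridised to single-colour ATH1 arrays. The deposited intensity values are the authors' processed array signals, made with GCOS per the submitters' processing notes, with no version given. The deposited signals were used as they are, with values under 1 set to 1 before log2. Probe sets were named from the platform annotation: 13513 carry 1 gene, 503 several and 8730 have no entry in the table used. No genome build was needed or used.

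Probe sets with a mean log2 signal at or above the 40th percentile (a signal of 74.2) were tested with limma 3.58.1 (R 4.3.3): a means model of 8 groups, eBayes with an intensity trend, 16 residual degrees of freedom, and Benjamini-Hochberg adjustment within each of 13 comparisons. The median half-width of a 95% interval was 0.59 for a difference of groups and 0.83 for a difference of responses (log2). The number of arrays limits this precision. The fit was also run on simulated data with independent normal noise and the same spread in every group. Such noise lacks the correlation of same-numbered arrays described below, so the run does not measure error rates in these data. Figures were drawn with matplotlib 3.10.9.

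The members and lists were chosen with earlier results of these data known. Named were the members called in any comparison, in each complex the member with the highest mean signal and those with the highest and lowest change in the INA comparison at 6 d and the DCA and INA comparisons at 48 h, all SEC61 members, and in the pathway lists the called genes or, where none was called, the gene with the highest mean signal. A few more were named besides, among them SRP54 (AT1G48900), the SEC11 gene AT1G52600 and members too dim to be tested. Where a gene has several probe sets, the brightest represents it. Medians, limits and counts over the list carry no test.

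Replicate numbers were checked by correlating deviations of same-numbered arrays from their group means. Every correlation was over 0.1 for INA against mock at 48 h (0.76, 0.78 and 0.29), DCA against INA at 6 d (0.75, 0.57 and 0.46) and DCA against mock in npr1-3 (0.67, 0.66 and 0.12), so a block within those groups was added after seeing the data. Alternatives were quantile normalization, other filters and floors, no trend, the groups alone, the mean of a gene's probe sets, a replicate block and leaving out arrays.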

Additional observations from a re-analysis of the deposited data

How the results depend on the processing

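With the replicate number as a block over all groups, the count of members called was 2 with DCA at 48 h and 1 with INA at 48 h, and in a fit to the groups compared alone it was 0 and 1, against 1 and 0 as reported. The replicate block within the groups compared gave 4 with INA at 48 h and 1 for DCA against INA at 6 d, and changed no call with DCA in npr1-3. Over all probe sets 15.3%, 3.19% and 1.43% were called in those 3 fits. The median for DCA against INA at 6 d was -0.15 with quantile normalization. For npr1-3 against Col-0 after DCA it was -0.02 without the filter. For the time change of the DCA response it was -0.26 without the filter, -0.09 with a filter at the 60th percentile and -0.22 with the mean of a gene's probe sets.

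Leaving out an array or a replicate number, the count of members called ranged from 0 to 3 with DCA at 48 h, 0 to 2 with INA at 48 h, 0 to 1 with INA at 6 d and for DCA against INA at 6 d, 0 to 5 for npr1-3 against Col-0 after mock and 0 to 4 after DCA. In the fits with the highest counts, 5.24% of all probe sets were called with DCA and 2.89% with INA at 48 h. At 6 d the shares were 0.931% to 2.12% with INA, and 0.344% and 0.953% for DCA against INA. Between genotypes they were 13.6% after mock, and 8.01% and 11.9% after DCA. The median ranged from 0.17 to 0.24 with DCA and 0.17 to 0.28 with INA at 48 h, -0.02 to 0.09 with DCA and 0.14 to 0.25 with INA at 6 d, 0.12 to 0.23 with DCA in npr1-3, -0.12 to -0.00 for DCA against INA at 48 h and -0.24 to -0.17 at 6 d, -0.12 to -0.02 for npr1-3 against Col-0 after mock and -0.12 to 0.03 after DCA, and -0.03 to 0.08 for mock plants over time. For the DCA response it ranged from -0.09 to 0.05 between genotypes and -0.23 to -0.07 between times, and for the INA response -0.12 to 0.03. Uncalled changes near 0 turned sign: AT3G60540 with DCA in npr1-3 was -0.05 with quantile normalization and between -0.35 and 0.46 without an array, and the brighter probe set of AT3G48570 was between -0.44 and 0.34 for npr1-3 against Col-0 after DCA. The cause of these shifts was not tested.

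Counts over all tested probe sets moved more. With the replicate block they were 641 against 329 as reported (DCA, 48 h), 633 against 250 (INA, 6 d), 2751 against 1732 and 27 against 11 (npr1-3 against Col-0 after DCA and after mock), 741 against 29 (mock over time), 66 against 3 (time change of the DCA response) and 1 against 0 (that of the INA response). With the block within groups they were 2085 against 362 (INA, 48 h), 436 against 29 (DCA against INA, 6 d) and 195 against 44 (DCA in npr1-3). In fits to the groups alone they were 167 with INA and 11 for DCA against INA at 48 h, 401 for mock over time, 2650 and 0 for npr1-3 against Col-0 after DCA and after mock, 36 and 0 for the DCA response over time and between genotypes, and 0 for DCA against INA at 6 d and for DCA in npr1-3. Quantile normalization gave 25 with DCA in npr1-3, 18 for npr1-3 against Col-0 after mock, 15 for mock over time and 3, against 1, for the DCA response between genotypes, which also gave 3 with signals floored at 32 or without the trend and 2 without the filter or at the 60th percentile. Without the filter the count was 2, against 0, with DCA at 6 d and 26 with DCA in npr1-3. For DCA against INA at 6 d it was 18 at the 60th percentile and 47 with the floor, which gave 11 for the time change of the DCA response. Leaving out an array or a replicate number gave 0 to 715 with DCA at 48 h, 0 to 395 with INA at 48 h, 0 to 290 with INA at 6 d, 0 to 130 for DCA against INA at 6 d, 0 to 1852 for npr1-3 against Col-0 after mock and 3 to 1987 after DCA. The number of arrays limits the precision, and the intervals differ between genes.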
